A study of Mus musculus with 2 samples.

Results

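The genes described here encode the machinery that copies nuclear DNA. A fixed list of 48 genes was looked up by symbol in the deposited table, which holds 54532 genes, and all 48 were found on 1 line each. They were sorted by role into origin recognition, licensing factors, the MCM2-7 helicase, helicase activation, primase and polymerases, the clamp and its loader, single-strand binding, flap removal and ligation, and nucleotide supply.

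RNA was sequenced from mouse material labelled as adipose, of a Trappc9 knockout (KO) and of wild type (WT), with 1 library per genotype. The TRAPPC9 protein belongs to a TRAPP complex, a regulator of membrane traffic. According to the design text, abdominal fat pads of 3 KO and 3 WT mice, aged 3 to 4 weeks, were treated with collagenase, strained and pelleted, and the sample titles speak of stem cells from adipose tissue. The extraction label instead describes pads that were frozen before RNA was taken. Which preparation was sequenced, whether the 3 mice of a genotype were pooled, their sex and strain, and how the KO allele was made are not stated in the labels used here.

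The libraries held 14783728 fragments (labelled KO) and 13705193 fragments (labelled WT), recovered from the FPKM values (fragments scaled by the length of the gene and the size of the library). Trappc9 itself (ENSMUSG00000047921, chromosome 15, 72589620 to 73061204, mm10) was listed at 12.6 FPKM in the KO-labelled library and 9.94 FPKM in the WT-labelled library, a ratio of 1.27 with a 95% counting interval of 1.17 to 1.37. The targeted gene was therefore not lower under the KO label, a gene total cannot locate a deletion inside a gene, and both libraries are called by their labels throughout. Below, "(KO)" and "(WT)" after a value name the library labelled so. Adipose progenitor genes were present (Pdgfra at 30.7 FPKM in the KO-labelled library and 34.2 FPKM in the WT-labelled library). Mature adipocyte genes were low in both libraries (Adipoq at 0.51 FPKM, KO, and 2.30 FPKM, WT), and the most abundant of them, Lipe, was near equal (3.21 FPKM, KO, and 3.08 FPKM, WT). Epididymal genes were far above both kinds (Gpx5 at 11686 FPKM, KO, and 10039 FPKM, WT). As each genotype had 1 library, no difference below has a replicate check and no p-value is given. A counting interval is the exact 95% Clopper-Pearson interval of a ratio from its fragments. It covers counting error only and says nothing about the spread between animals or preparations.

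Before S phase, the origin recognition complex marks the places where replication can start, and CDC6 and CDT1 load the MCM2-7 helicase there, which is called licensing. In S phase the DDK and CDK kinases, with CDC45, GINS and MCM10, switch the helicase on, and polymerases, the PCNA clamp and the ligase copy both strands. In most mammalian cells many of these genes are controlled by E2F transcription factors and are expressed mainly in dividing cells, so that their level in a tissue is commonly read as a sign of how many cells cycle. In bulk RNA, fewer expressing cells and less RNA per cell cannot be told apart.

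Most replication genes were lower in the KO-labelled library, by moderate amounts, and the steps differed in how much. Geminin (Gmnn), Mcm5, Mcm6, Cdc7, Gins1 and Prim1 were at least 1.5-fold lower after 1 FPKM was added to each value. By the plain FPKM ratio Cdc6, Dbf4, Lig1, Pold1 and Mcm3 were too, with ratios from 0.588 (Cdc6) to 0.662 (Mcm3). So were Fen1 (0.545) and Mcm10 (0.618), both averaging under 1 FPKM. The subunits of the origin recognition complex and of the clamp loader stood closer to equal. Gins4 and Rpa3 were higher beyond counting error, though not after rescaling to TPM. Of the 48 genes, 45 had a mean of at least 1 FPKM and are called measured. Differences are given as log2((KO + 1)/(WT + 1)) of the FPKM values, and the median over the measured genes was −0.27, against 0.02 over all 13084 measured protein-coding genes. Without the filter on level, the median over all 48 was also −0.27. At least 1.5-fold lower on this scale were 6 of the 45 (13.3%), where 2.11% of all measured genes were, and 0 were at least 1.5-fold higher, where 2.79% were. Lower beyond counting error (an interval wholly below 1) were 32 of the 45 (71.1%), where 17.6% of all measured genes were. Higher beyond counting error were 2 of the 45 (4.44%), where 24.6% were. Without regard to counting error, 41 of the 45 had the lower value in the KO-labelled library, where 45.3% of all measured genes did. Summed over the 48 genes, 16466 fragments or 0.111% of the KO-labelled library fell on them, against 20221 fragments or 0.148% of the WT-labelled library. On the TPM scale, where the median of all measured genes shifted by −0.19, the median over the 45 was −0.48, with 14 at least 1.5-fold lower, where 7.02% of all measured genes were.

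**Figure D1:**
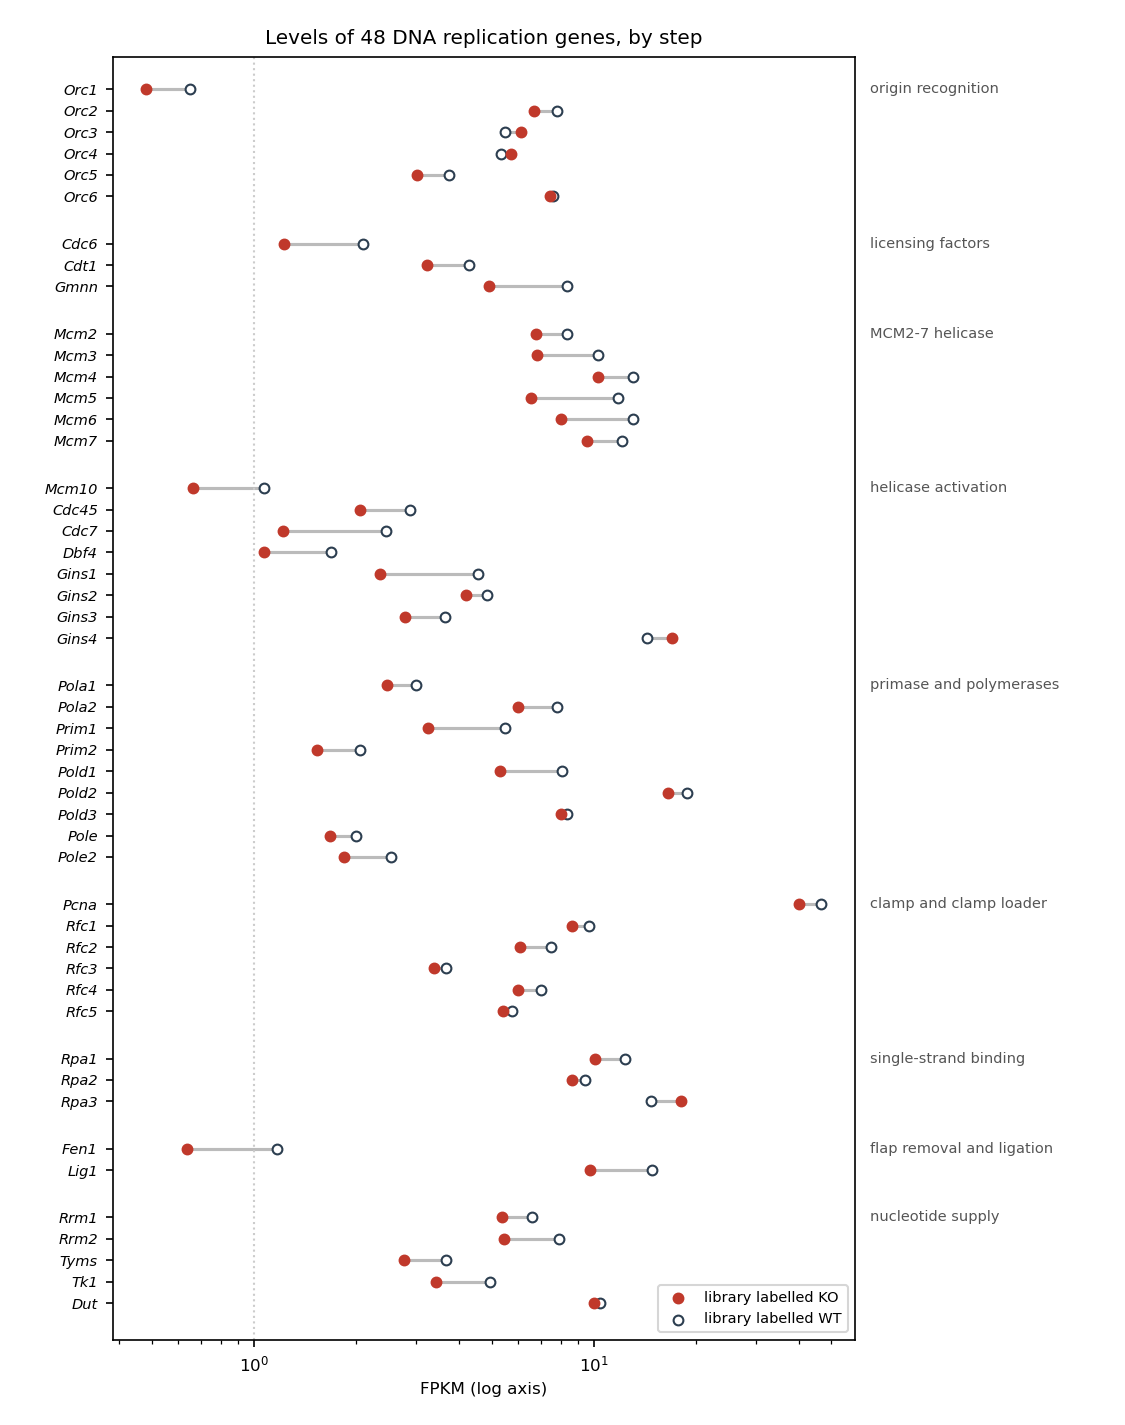
Level of each of the 48 genes in FPKM on a log axis, grouped by step, with filled points for the KO-labelled library, open points for the WT-labelled library and a dotted line at 1 FPKM. The filled point lies left of the open one for 44 of the 48 genes, and Pcna stands highest in both libraries, at 40.1 (KO) and 46.7 FPKM (WT).

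**Figure D2:**
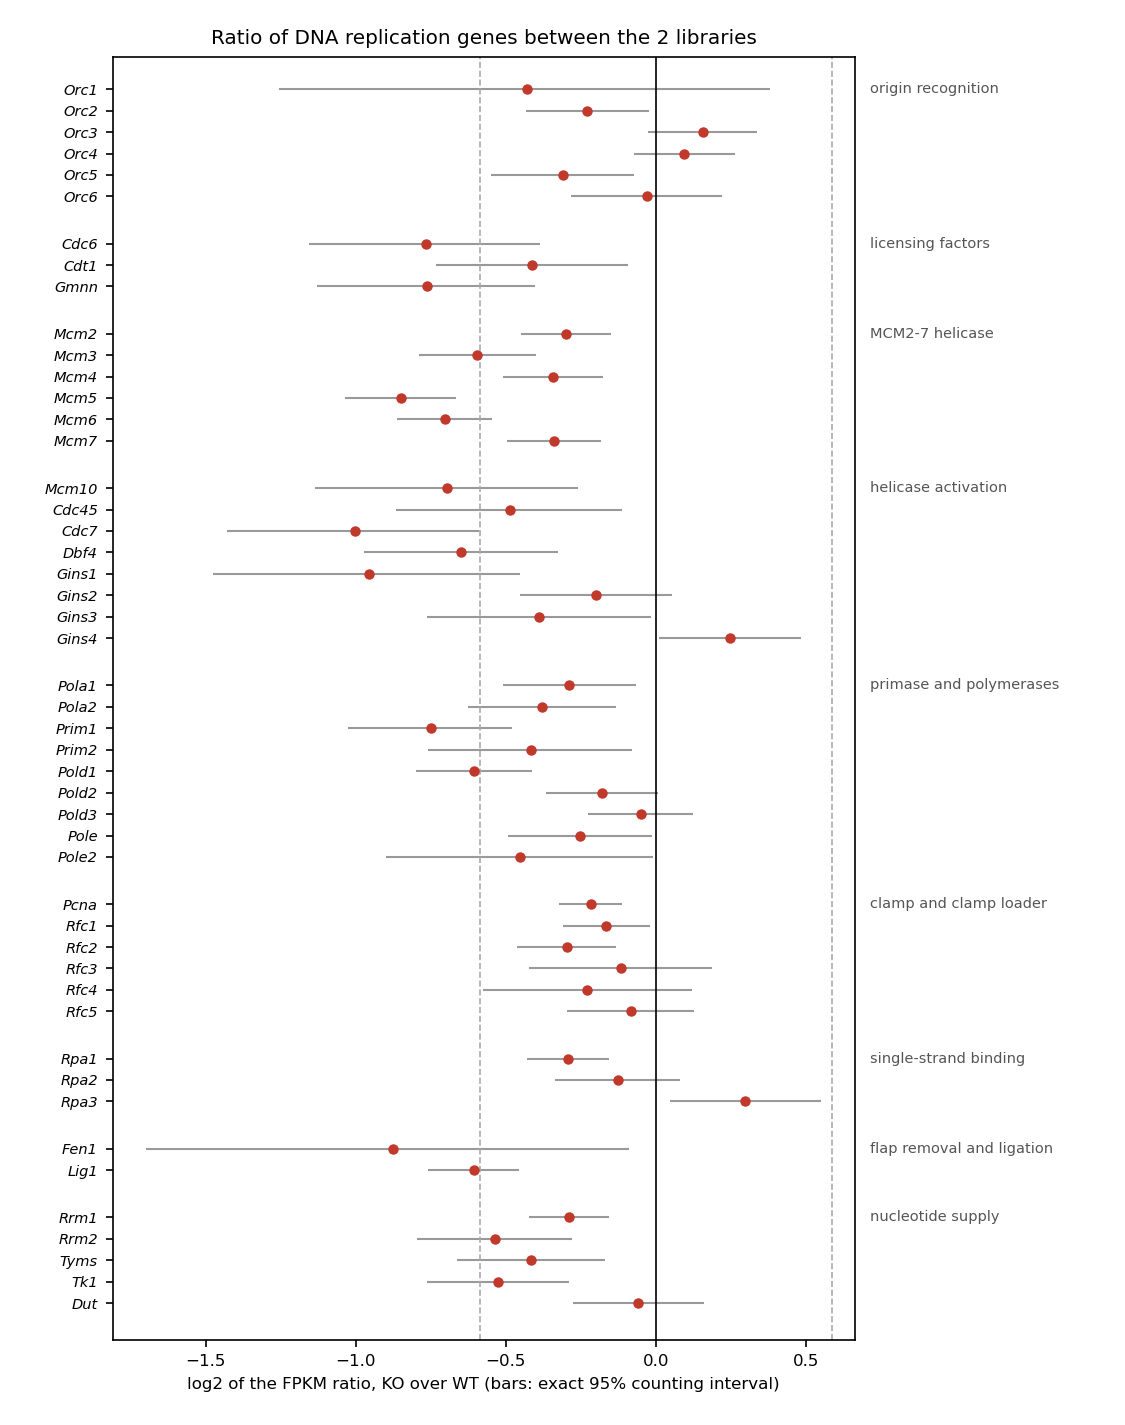
Log2 of the FPKM ratio of the KO-labelled over the WT-labelled library for each gene, with its exact 95% counting interval as a bar and dashed lines at a ratio of 1.5 in either direction. Nothing was added to the FPKM values here, so the points of Cdc6, Dbf4, Lig1, Pold1, Mcm3, Fen1 and Mcm10 also lie past the lower dashed line. Intervals wholly left of 0 cover all 6 MCM2-7 genes and 2 of the 6 genes of origin recognition, and intervals wholly right of 0 belong to Gins4 and Rpa3.

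The promoters of replication genes are where E2F factors act, and 6 of them are printed because they belong to the genes at the ends of the range. Shown are the 3 measured members with the lowest log2 ratios and the 3 with the highest among those that have an entry in the RefSeq promoter table (GRCm38.p6, the assembly also called mm10). The log2 ratios were −0.76 for Mcm5, −0.64 for Mcm6 and −0.63 for Cdc7, against 0.28 for Rpa3, 0.13 for Orc3 and 0.08 for Orc4. Gins1, Gmnn and Gins4 have no entry. Each window runs 5′ to 3′ on the gene's strand, from 250 bases before the annotated start to 50 after it. Capitals mark the E2F words TTCCCGC and TTCGCGC as well as TTGCCGC and TTGGCGC, on either strand, and neighbouring words may overlap.
Mcm5, chr8:75109259-75109558, plus strand: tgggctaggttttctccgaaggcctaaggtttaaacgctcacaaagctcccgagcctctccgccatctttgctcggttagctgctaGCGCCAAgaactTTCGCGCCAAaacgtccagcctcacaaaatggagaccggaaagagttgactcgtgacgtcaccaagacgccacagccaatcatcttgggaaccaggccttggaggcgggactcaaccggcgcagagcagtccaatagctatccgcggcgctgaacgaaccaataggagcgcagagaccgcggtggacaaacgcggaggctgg
Mcm6, chr1:128359656-128359955, minus strand: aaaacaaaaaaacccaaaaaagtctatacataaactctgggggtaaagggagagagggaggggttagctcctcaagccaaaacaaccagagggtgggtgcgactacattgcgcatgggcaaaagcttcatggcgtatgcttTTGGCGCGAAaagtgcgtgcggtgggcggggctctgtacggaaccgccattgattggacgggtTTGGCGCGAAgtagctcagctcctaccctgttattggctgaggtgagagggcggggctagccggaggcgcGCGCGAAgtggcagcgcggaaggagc
Cdc7, chr5:106964072-106964371, plus strand: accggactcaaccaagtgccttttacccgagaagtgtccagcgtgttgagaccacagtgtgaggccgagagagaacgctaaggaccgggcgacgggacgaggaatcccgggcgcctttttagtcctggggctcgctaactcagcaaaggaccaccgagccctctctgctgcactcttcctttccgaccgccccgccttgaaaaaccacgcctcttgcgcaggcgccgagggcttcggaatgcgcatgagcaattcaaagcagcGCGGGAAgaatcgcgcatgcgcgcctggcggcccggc
Rpa3, chr6:8259092-8259391, minus strand: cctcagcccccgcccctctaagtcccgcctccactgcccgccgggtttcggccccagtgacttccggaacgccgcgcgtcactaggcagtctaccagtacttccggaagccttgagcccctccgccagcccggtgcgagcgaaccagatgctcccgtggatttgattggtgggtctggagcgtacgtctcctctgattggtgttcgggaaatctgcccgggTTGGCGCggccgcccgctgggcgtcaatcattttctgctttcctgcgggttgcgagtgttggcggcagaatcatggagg
Orc3, chr4:34614893-34615192, minus strand: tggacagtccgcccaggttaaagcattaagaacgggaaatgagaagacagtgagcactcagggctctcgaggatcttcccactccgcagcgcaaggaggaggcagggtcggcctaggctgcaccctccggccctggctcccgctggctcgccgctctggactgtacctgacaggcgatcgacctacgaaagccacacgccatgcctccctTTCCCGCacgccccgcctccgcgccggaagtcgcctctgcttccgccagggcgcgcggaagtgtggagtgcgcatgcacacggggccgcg
Orc4, chr2:48950185-48950484, minus strand: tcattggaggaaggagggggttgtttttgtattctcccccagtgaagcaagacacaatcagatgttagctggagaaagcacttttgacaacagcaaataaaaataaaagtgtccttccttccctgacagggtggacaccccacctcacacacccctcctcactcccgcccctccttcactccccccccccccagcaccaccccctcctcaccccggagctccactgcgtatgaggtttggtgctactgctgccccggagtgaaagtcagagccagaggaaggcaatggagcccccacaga
In these windows Mcm5 held 3 matches, with first bases at positions −164 to −149 from the start site, and Mcm6 held 5, at positions −109 to 24. In Mcm5 a TTCGCGC overlaps the reverse complement of TTGGCGC. In Mcm6 each TTGGCGC upstream of the start site overlaps the reverse complement of TTCGCGC. Cdc7, Rpa3 and Orc3 held 1 match each in the window printed. Cdc7 has 2 windows, and the other holds a further match at −35 from its own start site. Orc4 held 0 in the window printed, although another of its 3 windows holds one.

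Of the 48 genes, 40 had at least 1 promoter window. An E2F word stood in the windows of 25 of these 40 (62.5%), where 19.1% of the 10262 measured protein-coding genes with an entry and 9.57% of all 32851 windows held one. A CHR element, the site through which the DREAM complex represses mitotic genes in resting cells, was searched as TTTGAA and TTCGAA on both strands. It stood in 9 of the 40 (22.5%), close to the 16.4% of measured genes, whereas 19 of 24 mitotic genes with an entry held it (79.2%) and 3 of those 24 held an E2F word. CCAAT boxes (CCAAT, both strands) were present in 23 of the 40 and in 42.6% of measured genes, and GC boxes (GGGCGG, both strands) in 31 of the 40 and in 67.6%. Within the replication genes, the ranges of genes with and without an E2F word overlapped. The 23 measured genes with one had a median log2 ratio of −0.31 (range −0.76 to 0.28), and the 14 without had −0.25 (range −0.42 to −0.03). Among the 37 measured genes with an entry, the 9 lowest log2 ratios belonged to genes with a word, and so did the 3 above 0. A match is a stretch of letters and does not show that a factor binds there.

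**Figure D3:**
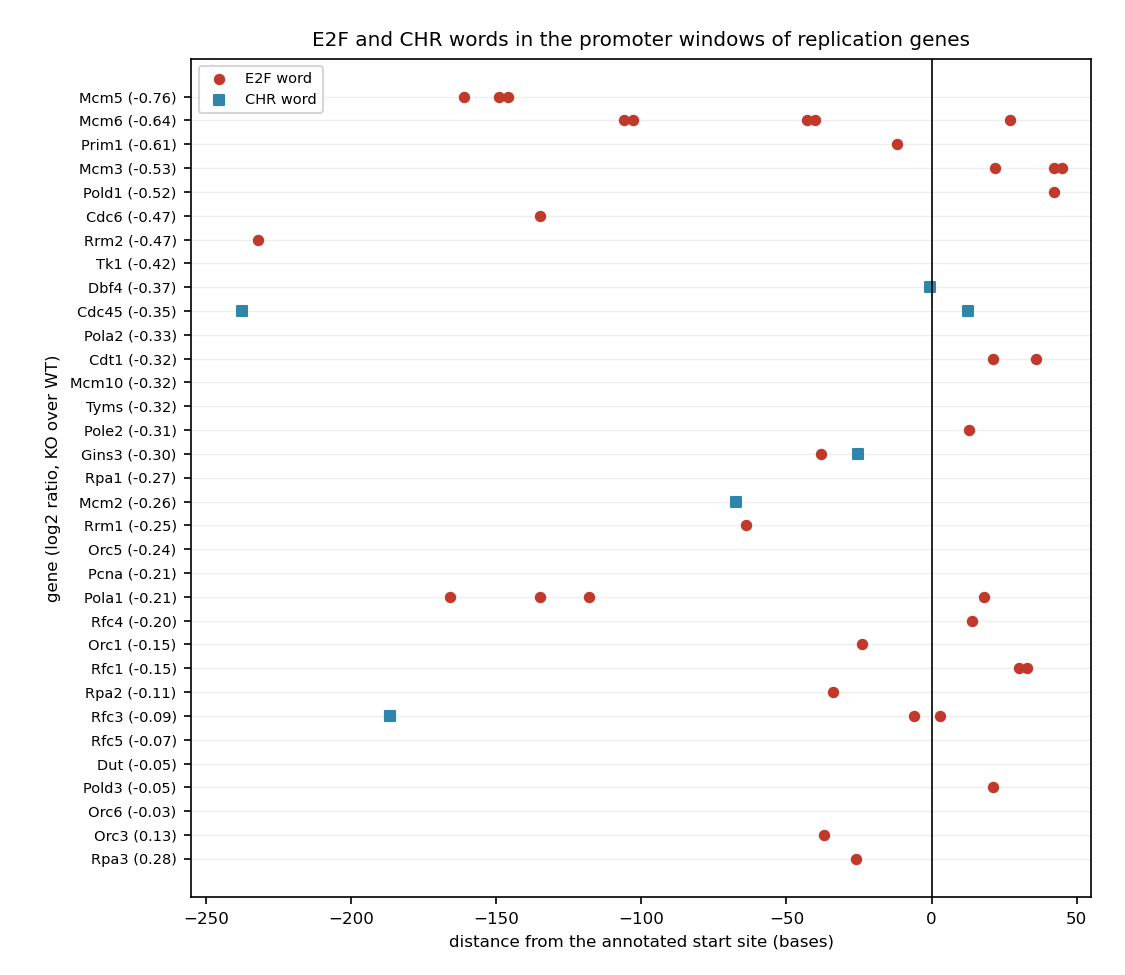
Position of E2F words (circles) and CHR words (squares) relative to the annotated start site, for the 33 members with exactly 1 promoter window, ordered from the lowest log2 ratio (top, Mcm5 at −0.76) to the highest (bottom, Rpa3 at 0.28). Words of the E2F kind occur at both ends of the order, and CHR words are few.

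Origin recognition was the step nearest to equal. The 6 subunits of this complex bind origins through the cell cycle, apart from ORC1, which in mammalian cells is lost after G1. Median log2 ratio over its 5 measured genes was −0.03, and their FPKM ran between 3.03 and 7.45 in the KO-labelled library and between 3.76 and 7.82 in the WT-labelled library. Orc2 (6.67 FPKM in the KO-labelled library, 7.82 FPKM in the WT-labelled library) and Orc5 (3.03 FPKM, KO, and 3.76 FPKM, WT) were lower beyond counting error. About 29.8% of the exonic bases of Orc2 are shared with Nif3l1 on the opposite strand, and its value is uncertain for that reason. Orc3 was at 6.11 FPKM in the KO-labelled library and 5.49 FPKM in the WT-labelled library, Orc4 at 5.70 (KO) and 5.34 FPKM (WT) and Orc6 at 7.45 (KO) and 7.61 FPKM (WT), and the intervals of all 3 ratios held 1. After rescaling to TPM the log2 ratios of Orc3 and Orc4 turned to −0.04 and −0.10. Orc1, the subunit that varies with the cell cycle, had 24 fragments (0.48 FPKM) in the KO-labelled library and 32 fragments (0.65 FPKM) in the WT-labelled library, too few to separate them, with an interval of 0.419 to 1.30.

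Licensing factors were lower throughout. CDC6 and CDT1 load the helicase and geminin binds CDT1 to prevent a second loading in the same cycle. Geminin's gene, Gmnn, stood at 4.92 FPKM in the KO-labelled library (103 fragments) and 8.34 FPKM in the WT-labelled library (173 fragments), a ratio of 0.590 with an interval of 0.457 to 0.757. Cdc6 was at 1.23 FPKM in the KO-labelled library and 2.09 FPKM in the WT-labelled library, with a ratio of 0.588 (0.449 to 0.766). Cdt1 was at 3.23 FPKM in the KO-labelled library and 4.29 FPKM in the WT-labelled library, with a ratio of 0.752 (0.602 to 0.938). All 3 intervals lay below 1, where 17.6% of all measured genes had such an interval. The step's median log2 ratio was −0.47, or −0.72 with a pseudocount of 0.1 FPKM. The level of Gmnn over that of Cdt1 was 1.52 in the KO-labelled library and 1.94 in the WT-labelled library.

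The 6 genes of the MCM2-7 helicase, the ring that unwinds DNA at the fork, were all lower beyond counting error. Their median log2 ratio was −0.42, and 17.6% of all measured genes were lower beyond counting error. Mcm5 had the lowest log2 ratio of all measured members, −0.76, at 6.51 FPKM in the KO-labelled library and 11.7 FPKM in the WT-labelled library, a ratio of 0.555 (0.487 to 0.631). Mcm6, at 8.02 FPKM in the KO-labelled library and 13.1 FPKM in the WT-labelled library, had a ratio of 0.614 (0.550 to 0.685). Mcm3 followed at 6.80 FPKM in the KO-labelled library and 10.3 FPKM in the WT-labelled library. Mcm2 (6.75 FPKM in the KO-labelled library and 8.31 FPKM in the WT-labelled library), Mcm4 (10.3 FPKM, KO, and 13.0 FPKM, WT) and Mcm7 (9.56 FPKM, KO, and 12.1 FPKM, WT) had ratios of 0.813 (Mcm2), 0.788 (Mcm4) and 0.790 (Mcm7). The upper bounds of Mcm5 and Mcm6, 0.631 and 0.685, lay under the lower bounds of Mcm2, Mcm4 and Mcm7, which were 0.733, 0.702 and 0.709, so that within the complex the ratios differed by more than counting error. Levels within the ring were close: the highest subunit was 1.58 times the lowest in the KO-labelled library and 1.57 times in the WT-labelled library. The lowest subunit was Mcm5 in the KO-labelled library and Mcm2 in the WT-labelled library. Mcm8 and Mcm9, relatives that act in recombination rather than in the replicative ring, were at 2.28 and 2.59 FPKM in the KO-labelled library and 3.15 and 2.81 FPKM in the WT-labelled library.

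Helicase activation spanned the widest range of the steps, from −0.73 for Gins1 to 0.23 for Gins4, with a median of −0.35 over 7 measured genes. Cdc7 encodes the kinase subunit and Dbf4 the regulatory subunit of DDK, which phosphorylates the loaded ring. Cdc7 was at 1.22 FPKM in the KO-labelled library (73 fragments) and 2.45 FPKM in the WT-labelled library (145 fragments), a ratio of 0.499 (0.371 to 0.665). Dbf4 was at 1.07 FPKM in the KO-labelled library and 1.68 FPKM in the WT-labelled library, a ratio of 0.638 (0.510 to 0.796). Cdc45, which with GINS completes the active helicase, was at 2.05 FPKM in the KO-labelled library and 2.88 FPKM in the WT-labelled library. Mcm10, a factor needed for unwinding, was under the measured level with 0.66 FPKM in the KO-labelled library and 1.07 FPKM in the WT-labelled library, and its interval was 0.455 to 0.835.

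The 4 genes of GINS, whose products form a single complex, had ratios on both sides of 1. Gins1 was at 2.35 FPKM in the KO-labelled library (51 fragments) and 4.56 FPKM in the WT-labelled library (98 fragments), a ratio of 0.515 (0.360 to 0.730). Gins3 was at 2.79 FPKM in the KO-labelled library and 3.65 FPKM in the WT-labelled library. Gins2 was at 4.21 FPKM in the KO-labelled library and 4.84 FPKM in the WT-labelled library with an interval of 0.731 to 1.04, and it shares 67.3% of its exonic bases with Gse1 on the opposite strand (7.37 FPKM in the KO-labelled library, 6.08 FPKM in the WT-labelled library). Gins4, in contrast, was at 17.0 FPKM in the KO-labelled library and 14.3 FPKM in the WT-labelled library, a ratio of 1.19 (1.01 to 1.40). Under TPM its log2 ratio was 0.04 and it was no longer higher beyond counting error. The level of Gins4 over that of Gins1 was 7.23 in the KO-labelled library and 3.14 in the WT-labelled library.

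All 9 genes of primase and the replicative polymerases had lower values in the KO-labelled library, with a median log2 ratio of −0.27. Beyond counting error 7 of the 9 were lower, where 17.6% of all measured genes were. Primase lays down the RNA primer and polymerase alpha extends it. Prim1, the catalytic primase subunit, was at 3.25 FPKM in the KO-labelled library and 5.48 FPKM in the WT-labelled library, a ratio of 0.594 (0.491 to 0.717). Its partner Prim2 was at 1.53 FPKM in the KO-labelled library and 2.04 FPKM in the WT-labelled library. Pola1, the catalytic subunit of polymerase alpha, was at 2.46 FPKM in the KO-labelled library and 3.00 FPKM in the WT-labelled library, and Pola2 at 5.99 (KO) and 7.79 FPKM (WT). Of the lagging-strand enzyme polymerase delta, the catalytic subunit Pold1 (5.28 FPKM in the KO-labelled library, 8.03 FPKM in the WT-labelled library) had a ratio of 0.657 (0.574 to 0.751), below the intervals of Pold2 (0.775 to 1.00) and Pold3 (0.854 to 1.09). The accessory subunits were at 16.6 FPKM in the KO-labelled library and 18.8 FPKM in the WT-labelled library for Pold2, and at 8.02 (KO) and 8.32 FPKM (WT) for Pold3. For the leading-strand enzyme polymerase epsilon, Pole was at 1.68 FPKM in the KO-labelled library and 2.0 FPKM in the WT-labelled library, and Pole2 at 1.84 (KO) and 2.52 FPKM (WT). Their upper bounds, 0.991 and 0.992, lay just under 1.

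The sliding clamp and its loader differed less. PCNA encircles DNA and holds the polymerases on it, and replication factor C opens the ring to load it. Pcna was the most abundant member, at 40.1 FPKM in the KO-labelled library (1377 fragments) and 46.7 FPKM in the WT-labelled library (1586 fragments), a ratio of 0.860 (0.799 to 0.925). Rfc1, the large subunit, was at 8.62 FPKM in the KO-labelled library and 9.66 FPKM in the WT-labelled library, and Rfc2 at 6.07 (KO) and 7.46 FPKM (WT), both lower beyond counting error. Rfc3, Rfc4 and Rfc5 ranged between 3.39 and 5.97 FPKM in the KO-labelled library and between 3.68 and 7.0 FPKM in the WT-labelled library, and their intervals held 1. The median log2 ratio of the step was −0.17. The level of Pcna over that of Rfc1 was 4.66 in the KO-labelled library and 4.83 in the WT-labelled library.

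Replication protein A coats the exposed single strand, in replication as well as in repair. Rpa1, the large DNA-binding subunit, was at 10.1 FPKM in the KO-labelled library and 12.3 FPKM in the WT-labelled library, a ratio of 0.817 (0.743 to 0.897). Rpa2 was at 8.62 FPKM in the KO-labelled library and 9.41 FPKM in the WT-labelled library, with an interval that held 1. Rpa3, the smallest subunit, was at 18.1 FPKM in the KO-labelled library and 14.7 FPKM in the WT-labelled library, a ratio of 1.23 (1.03 to 1.46), the highest of all members. On the TPM scale its log2 ratio was 0.09, and it was not higher beyond counting error either. The 3 subunits of this complex thus had ratios on both sides of 1.

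FEN1 trims the flap left by each primer on the lagging strand and LIG1 seals the nick. Lig1 was at 9.73 FPKM in the KO-labelled library (594 fragments) and 14.8 FPKM in the WT-labelled library (896 fragments), a ratio of 0.656 (0.591 to 0.729). Fen1 was at 0.64 FPKM in the KO-labelled library and 1.17 FPKM in the WT-labelled library, from 22 fragments (KO) and 40 fragments (WT). This low level is uncertain, because 84.2% of the exonic bases of Fen1 are shared with genes on the opposite strand, mainly Gm10143 (0.15 FPKM, KO, and 0.13 FPKM, WT). How the authors counted reads from shared bases, and whether by strand, was not stated.

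Of the 5 genes of nucleotide supply, 4 were lower beyond counting error, where 17.6% of all measured genes were. Ribonucleotide reductase makes deoxyribonucleotides. Its large subunit gene Rrm1 was at 5.36 FPKM in the KO-labelled library and 6.56 FPKM in the WT-labelled library, and its S-phase small subunit gene Rrm2 at 5.42 (KO) and 7.87 FPKM (WT). Tk1, the cytosolic thymidine kinase of dividing cells, was at 3.44 FPKM in the KO-labelled library and 4.96 FPKM in the WT-labelled library, a ratio of 0.695 (0.590 to 0.817). Tyms, which makes thymidylate, was at 2.76 FPKM in the KO-labelled library and 3.68 FPKM in the WT-labelled library. Dut, which removes dUTP, was at 10.0 FPKM in the KO-labelled library and 10.4 FPKM in the WT-labelled library, with an interval of 0.825 to 1.12. The step's median log2 ratio was −0.32.

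Some S-phase enzymes have counterparts of like activity that serve mitochondria and resting cells. Rrm2b, the small subunit that supplies mitochondrial DNA synthesis and repair outside S phase, was at 4.48 FPKM in the KO-labelled library and 3.39 FPKM in the WT-labelled library, a ratio of 1.32 (1.17 to 1.5). The level of Rrm2 over that of Rrm2b was therefore 1.21 in the KO-labelled library and 2.33 in the WT-labelled library. Tk2, the mitochondrial thymidine kinase, was at 11.1 FPKM in the KO-labelled library and 10.2 FPKM in the WT-labelled library, a ratio of 1.09 with an interval of 0.962 to 1.23 that held 1. The level of Tk1 over that of Tk2 was 0.310 in the KO-labelled library and 0.485 in the WT-labelled library. The whole list of 10 mitochondrial DNA replication genes had a median log2 ratio of 0.07 (−0.11 under TPM). Of the 10, 4 were higher beyond counting error, where 24.6% of all measured genes were, and 1, Polg, was lower, where 17.6% were. Polg, the catalytic subunit of the mitochondrial polymerase, was at 4.93 FPKM in the KO-labelled library and 5.91 FPKM in the WT-labelled library, and its accessory subunit gene Polg2 at 2.94 (KO) and 2.30 FPKM (WT).

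**Figure D4:**
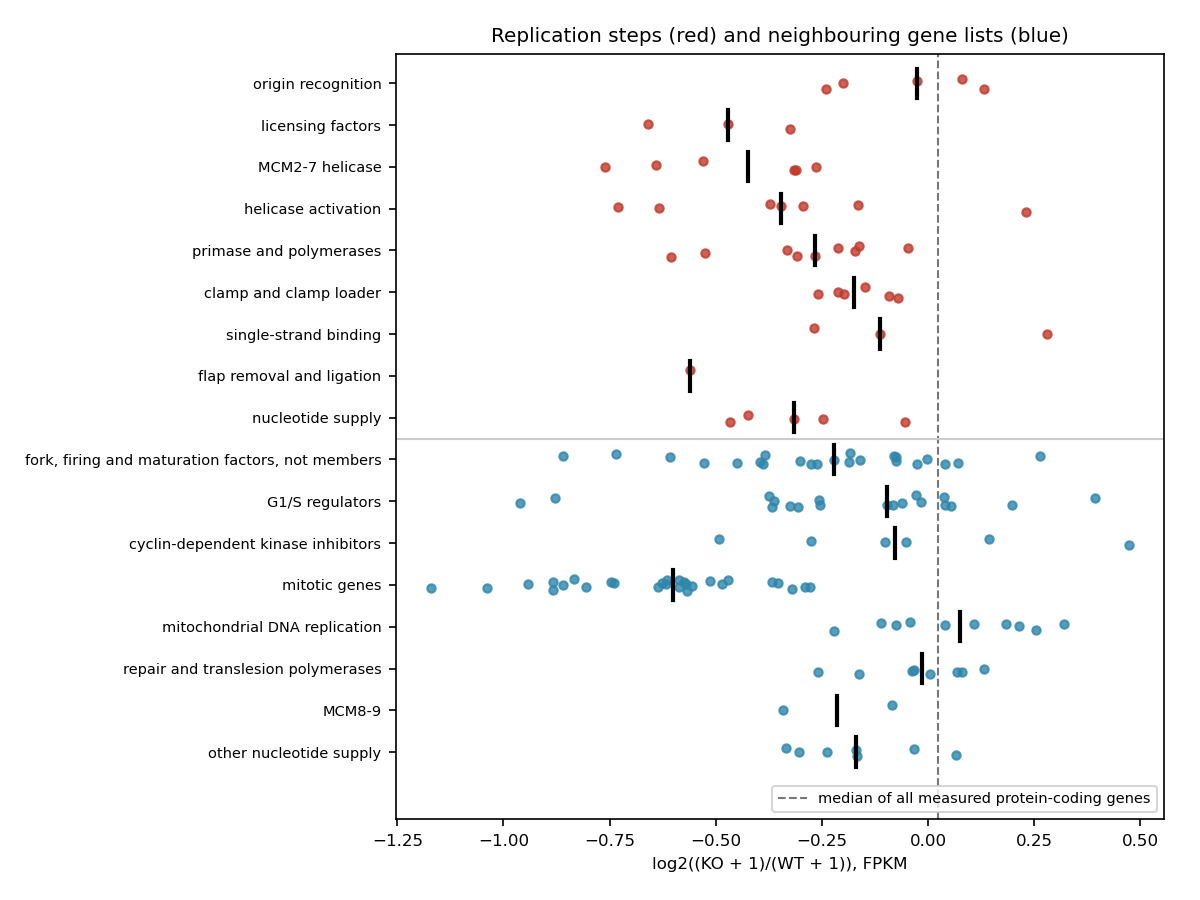
Log2((KO + 1)/(WT + 1)) of each measured gene (points) by replication step (red) and in neighbouring gene lists (blue), with the median of each list as a black bar and the median of all measured protein-coding genes, 0.02, as a dashed line. Among the replication steps the medians run from −0.03 for origin recognition to −0.56 for the only measured gene of flap removal and ligation, and among the neighbouring lists from 0.07 for mitochondrial DNA replication to −0.60 for mitotic genes.

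Other genes of the fork and of S phase, which are not members, gave a median log2 ratio of −0.22 (−0.44 under TPM) over 23 measured of 26. Beyond counting error 12 were lower and 1 was higher, where 17.6% and 24.6% of all measured genes were. Uhrf1, which brings the maintenance methylase to newly copied DNA, was at 8.13 FPKM in the KO-labelled library and 15.5 FPKM in the WT-labelled library, a ratio of 0.523 (0.468 to 0.583). Chtf18, part of an alternative clamp loader, was at 0.79 FPKM in the KO-labelled library and 1.99 FPKM in the WT-labelled library, and the histone chaperone gene Asf1b at 2.57 (KO) and 4.44 FPKM (WT). Chtf8, the most abundant of this list, was at 30.8 FPKM in the KO-labelled library and 31.4 FPKM in the WT-labelled library. Among 7 measured further genes of nucleotide metabolism 4 were lower and 0 higher beyond counting error, with Dck at 4.70 FPKM in the KO-labelled library and 6.18 FPKM in the WT-labelled library and Dctpp1 at 21.2 (KO) and 25.2 FPKM (WT).

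Regulators of the G1/S transition were mixed. Of 19 measured genes, 9 were lower and 2 higher beyond counting error, where 17.6% and 24.6% of all measured genes were. The median log2 ratio of the list was −0.10. That median was −0.30 under TPM and −0.20 without the filter on level. The activator E2f1 was at 2.55 FPKM in the KO-labelled library (115 fragments) and 5.91 FPKM in the WT-labelled library (264 fragments), a ratio of 0.431 (0.343 to 0.539). E2f8, a repressor that is itself an E2F target, was at 0.77 FPKM in the KO-labelled library and 2.26 FPKM in the WT-labelled library. Tfdp2, a dimerization partner of E2F proteins, was higher, at 5.10 FPKM in the KO-labelled library and 3.64 FPKM in the WT-labelled library, a ratio of 1.40 (1.27 to 1.54). Cdk4, the most abundant of this list, was at 39.4 FPKM in the KO-labelled library and 39.9 FPKM in the WT-labelled library.

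By the median of each list, genes of mitosis were lower by more than the replication genes. All 28 were lower beyond counting error, where 17.6% of all measured genes were. Their median log2 ratio was −0.60 (−0.89 under TPM), against −0.27 (−0.48 under TPM) for the measured replication genes. At least 1.5-fold lower, with 1 FPKM added, were 16 of the 28 mitotic genes and 6 of the 45 replication genes, where 2.11% of all measured genes were. Plk1 (3.88 FPKM in the KO-labelled library, 9.98 FPKM in the WT-labelled library), Tpx2 (3.39 FPKM, KO, and 8.03 FPKM, WT) and Ccna2 (3.65 FPKM, KO, and 7.94 FPKM, WT) had the lowest log2 ratios. Without the pseudocount their ratios were 0.388 to 0.460, under that of Cdc7 at 0.499, the lowest of the replication genes. Cdc20, the highest by mean level, was at 11.5 FPKM in the KO-labelled library and 16.3 FPKM in the WT-labelled library. The replication median covers steps as unlike as origin recognition (−0.03) and licensing factors (−0.47), so the gap depends on which genes each list holds. With 1 library per genotype, the difference between these lists has no test.

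Marker sums of several other cell types differed between the libraries as well, though not of all. Smooth muscle markers were lower in 2 of 4 genes and summed to 605 FPKM (KO) and 615 FPKM (WT). Sertoli and Leydig cell markers were lower in 6 of 8 and summed to 59.2 FPKM (KO) and 58.7 FPKM (WT). Without Cyp17a1 the latter sums were 49.1 FPKM (KO) and 53.2 FPKM (WT). Sox9, at 27.1 (KO) and 28.7 FPKM (WT), and Cldn11, at 17.5 (KO) and 19.5 FPKM (WT), made up most of them. Others of this list were near the floor, such as Amh with 7 (KO) and 17 fragments (WT), and 0 of the 8 were lower beyond counting error. Mature adipocyte markers were lower in 3 of 6 and summed to 6.60 FPKM (KO) and 9.67 FPKM (WT). Of 10 genes of spermatogonia and spermatocytes, germ cells that replicate DNA before meiosis, 9 had lower values in the KO-labelled library, where all 10 summed to 10.4 FPKM, against 16.2 FPKM in the WT-labelled library. A lower value in the KO-labelled library was seen for 45.3% of all measured genes. Beyond counting error 5 of the 10 were lower and 1, Spo11 at 1.34 (KO) and 0.88 FPKM (WT), was higher. Of all measured genes, 17.6% were lower and 24.6% higher in this way. Only 5 of the 10 germ cell genes averaged 1 FPKM or more, and of these 2 were lower and 1 was higher. Stra8 had 0 fragments in the KO-labelled library and 5 in the WT-labelled library, with an interval that held 1. Ddx4 was at 1.65 (KO) and 3.77 FPKM (WT), and Zbtb16, the most abundant of the 10, at 4.51 (KO) and 4.58 FPKM (WT). Mesothelial markers were lower in 4 of 4 genes and summed to 27.1 FPKM in the KO-labelled library and 47.8 FPKM in the WT-labelled library. Adipose progenitor markers were lower in 4 of 8 and higher in the other 4, and summed to 217 FPKM in the KO-labelled library and 238 FPKM in the WT-labelled library. That lower sum rested on Cd34, at 27.4 (KO) and 52.6 FPKM (WT), and without it the sums were 189.6 FPKM in the KO-labelled library and 186 FPKM in the WT-labelled library. Endothelial markers were higher in 4 of 5, with sums of 36.1 FPKM in the KO-labelled library and 32.2 FPKM in the WT-labelled library, and 8 of 8 epididymal epithelial genes were higher, with sums of 25768 FPKM in the KO-labelled library and 18812 FPKM in the WT-labelled library. Spermatid genes, which belong to cells past their last replication, were higher in 6 of 7, with sums of 172 FPKM in the KO-labelled library and 35.8 FPKM in the WT-labelled library. Leukocyte markers had lower values in 5 of 8 genes, and 1 of the 8, Cd52 at 243 (KO) and 165 FPKM (WT), was higher beyond counting error, where 24.6% of all measured genes were. Leukocyte sums of 266 FPKM in the KO-labelled library and 189 FPKM in the WT-labelled library rested on Cd52, and without it they were 22.5 FPKM in the KO-labelled library and 24.5 FPKM in the WT-labelled library. Erythroid markers had higher values in 4 of 5 genes and summed to 280.0 FPKM in the KO-labelled library and 241 FPKM in the WT-labelled library, or without Hba-a1 to 26.0 FPKM in the KO-labelled library and 20.6 FPKM in the WT-labelled library. The part of any of these cell types in the lower replication genes was not tested.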

How the data were processed

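RNA sequencing of 1 library per genotype was deposited by the authors as 1 table of FPKM values, per the file headers, with gene length, position and biotype. Per the labels' protocols, 1 µg of RNA went into an Illumina TruSeq preparation. HISAT2 2.0.5, mm10 and hg38 are listed in the submitters' processing notes, and the counting program and its use of strand are not given in the sources used here. Groups were taken from the genotype labels.

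Gene length, in the deposited file (a further, other column beside the FPKM values of the authors), times FPKM fell on whole steps, within 0.01 of a fragment, for 100% of values above 0, and these steps are the fragments. The deposited values were used without further scaling: the ratio of the library sizes behind them was 1.01 (KO over WT), against 1.08 for the fragment totals. Differences are log2 ratios after adding 1 FPKM to each value, so the change of low genes is understated. The 95% counting intervals are exact and cover counting error only, as no molecular identifiers are mentioned. No test was possible with 1 library per genotype. Genes averaging 1 FPKM or more are called measured, and 1.5-fold was the size rule. Calculations used Python 3.11.15 with pandas 2.3.3 and scipy 1.17.1, and were tested on simulated data. Alternatives were other pseudocounts, filters, folds, intervals and scalings (TPM, fragment totals).

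The 48 genes and all lists were chosen with earlier results of these data known. Every member is named. Of each other pathway list the 3 measured genes with the largest absolute log2 ratio and the most abundant gene are named, and others were chosen after their values were seen (Gse1, Gm10143, Nif3l1 and the markers given). For 1 gene that this rule picks, the values are not reported here. Promoters are those of RefSeq on GRCm38.p6, matched by symbol for 40 of 48 genes, and exon overlaps come from GENCODE M21, in which 47 of the 48 genes have the coordinates of the file.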

Additional observations from a re-analysis of the deposited data

How the results depend on the processing

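Over the 45 measured replication genes, the median log2 ratio was below 0 in all 8 alternatives run, from −0.16 (pseudocount of 5 FPKM) to −0.48 (TPM). For 5 of these the sign was fixed beforehand. A pseudocount keeps the sign of a ratio. TPM, fragment totals and centring on the median of all measured genes each set KO-labelled values lower relative to WT-labelled ones. Changing the set of genes gave −0.27 without the filter on level and −0.23 at 5 FPKM or more. TPM also moved the medians of the MCM2-7 helicase to −0.65 and of flap removal and ligation, 1 gene, to −0.79. The order of the steps depended on the pseudocount. With 0.1 FPKM, licensing factors (−0.72) fell below flap removal and ligation (−0.60). Helicase activation (−0.47) then stood level with the MCM2-7 helicase (−0.46). Rescaling shifted all genes too. The median of all measured genes shifted by −0.19 on the TPM scale. The count at least 1.5-fold lower, 6, depended on the setting: it was 11 with a pseudocount of 0.1 FPKM (4.13% of all measured genes), 0 with 5 FPKM (0.359%), 14 under TPM (7.02%), 3 among genes averaging 5 FPKM or more (1.08%), 0 at 2-fold (0.290%) and 16 at a log2 ratio of −0.32 or below (7.64%). In brackets is the share of all measured genes past the same rule. The count lower beyond counting error, 32, was 40 under TPM, where 48.4% of all measured genes were lower, and 21 with intervals that leave 0.1% outside, where 8.36% were. The 2 genes higher beyond counting error, Gins4 and Rpa3, became 0 under TPM, 0 when scaled by fragment totals and 0 with those wider intervals. Of the members that differed beyond counting error, only Gins4 and Rpa3 could have changed direction under the 5 alternative pseudocounts and scalings. Neither did. E2F words with a further T before them stood in 15 of 40 promoters instead of 25, where 4.61% of measured genes held one. Leaving out members with over 20% shared exonic bases, chosen after seeing the data, left 43 measured genes with 6, 31 and 2 in these counts. Marker sums without the gene that differed most between the libraries were also added after seeing the data. No paired analysis was possible because each genotype has 1 library, and for the same reason no library could be left out.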

Other observations

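Inhibitors of cyclin-dependent kinases, which hold cells before S phase, did not share a direction. Cdkn2c was at 8.33 FPKM in the KO-labelled library and 12.1 FPKM in the WT-labelled library, a ratio of 0.687 (0.594 to 0.794), and Cdkn1c at 8.13 (KO) and 10.0 FPKM (WT). Cdkn2b was higher, at 3.07 FPKM in the KO-labelled library (61 fragments) and 1.93 FPKM in the WT-labelled library (38 fragments), with an interval of 1.04 to 2.45. Cdkn1b, the most abundant, was at 19.4 FPKM in the KO-labelled library and 20.1 FPKM in the WT-labelled library, with an interval of 0.890 to 1.04. Cdkn2a had 2 fragments in the KO-labelled library and 6 in the WT-labelled library.

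DNA polymerases of repair and of translesion synthesis stood near equal, with a median log2 ratio of −0.01 over 8 measured genes (−0.20 under TPM). Polh, which copies past ultraviolet damage, was the only one of them lower beyond counting error, at 2.23 FPKM in the KO-labelled library and 2.87 FPKM in the WT-labelled library. Poll was at 5.57 FPKM in the KO-labelled library and 6.35 FPKM in the WT-labelled library. Polb, the polymerase of base excision repair, was at 12.8 FPKM in the KO-labelled library and 11.6 FPKM in the WT-labelled library. The level of the replicative Pold1 over that of Polb was 0.411 in the KO-labelled library and 0.691 in the WT-labelled library.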
